A study of Homo sapiens with 12 samples.

Results

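The genes described here encode 8 interferon-induced proteins of membranes, mitochondria and the cytoplasm: IFITM1, IFITM2, IFITM3, BST2, IFI6, IFI27, IFI44 and IFI44L. They were taken by symbol from the deposited tables, where all 8 were found among 13001 listed genes. All 8 passed the filter on low counts, which removed no gene. The smallest total of any listed gene was 168 counts over the 12 libraries, so the list holds no gene with fewer. Shares of all genes refer to this list. PolyA RNA had been sequenced from LNCaP (clone FGC), an androgen-responsive line grown from a lymph node metastasis of a prostate cancer. Cells carried a transient transfection of LSD1+8a (the splice form of the lysine demethylase LSD1 that includes exon 8a), of SRRM4 (a splicing factor of neural microexons), of LSD1 (the form without that exon), or of the empty vector (EV), with 3 libraries in each group. Every group, EV included, was at passage 8, had been exposed to Lipofectamine 2000 with a medium change after 6 h, and grew in RPMI 1640 with 10% FBS. The share of cells that took up a plasmid and the time of harvest are not given in the sources used here. In these bulk samples, more responding cells and more RNA per cell cannot be told apart.

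Type I and type III interferons bind receptors at the cell surface that activate the kinases JAK1 and TYK2. These phosphorylate STAT proteins, which join IRF9 to form ISGF3, a complex that binds interferon-stimulated response elements (ISREs) in the promoters of its target genes. IFITM1, IFITM2 and IFITM3 sit in the plasma membrane and in endosomes and hinder the fusion of enveloped viruses with the cell. BST2, also called tetherin, holds budding virions at the cell surface. IFI6 and IFI27 are small hydrophobic proteins reported at mitochondria, where IFI6 opposes apoptosis and IFI27 has been linked to its promotion. IFI44 and its relative IFI44L are largely cytoplasmic and are widely used as readouts of an interferon response.

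The promoter stretches that carry ISRE-like letters are shown first. The 8 genes are known as interferon-induced, so such letters were likely in their promoters whatever these data showed. RefSeq promoter windows (GRCh38.p14, 250 bases before to 50 after each gene's start) were held for IFITM1, IFITM3, BST2, IFI6, IFI27, IFI44 and IFI44L, and not for IFITM2. Each line gives the strand of the gene, 5′ to 3′, from the first to the last match with up to 10 bases on each side, and capitals mark matches to the ISRE-like motif, which is GAAA, any 2 bases and GAAA again, searched on both strands (TTTC, any 2 bases and TTTC where the match lies on the opposite strand). Where a gene has several starts in the table, the window with the lowest coordinate is shown. For 6 of the 7 genes that start is the 5′ end of the gene span given further on, while the start of the IFI27 window lies inside the span of IFI27, downstream of its 5′ end. The stretches are IFITM1 chr11:313990-314053 (plus strand), IFITM3 chr11:320876-320922 (minus), BST2 chr19:17405735-17405770 (minus), IFI6 chr1:27672266-27672358 (minus), IFI27 chr14:94110618-94110660 (plus), IFI44 chr1:78649761-78649790 (plus) and IFI44L chr1:78620274-78620394 (plus).
IFITM1: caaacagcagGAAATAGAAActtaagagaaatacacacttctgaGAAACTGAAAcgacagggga
IFITM3: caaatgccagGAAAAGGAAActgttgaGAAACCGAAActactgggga
BST2: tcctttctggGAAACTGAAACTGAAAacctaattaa
IFI6: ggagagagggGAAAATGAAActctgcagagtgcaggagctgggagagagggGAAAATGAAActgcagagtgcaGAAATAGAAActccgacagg
IFI27: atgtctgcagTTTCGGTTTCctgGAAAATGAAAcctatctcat
IFI44: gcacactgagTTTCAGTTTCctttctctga
IFI44L: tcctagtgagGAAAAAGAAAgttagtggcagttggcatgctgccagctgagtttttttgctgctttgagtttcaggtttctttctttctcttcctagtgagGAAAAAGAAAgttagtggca

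At least 1 such match lay in each of the 7 windows, against 3.57% of all 35116 windows in the table, or 4.38% of 27305 genes. IFI6 had 3 matches, at -156, -115 and -93 from its start, and the first and second are the same 10 letters. IFITM1 had matches at -40 and -6, the second of them running past the start. IFITM3 had matches at -52 and -35, and the matches of BST2 at -130 and -124 overlap. IFI27 had 1 match on each strand, at -108 and -95 from the start inside its span. IFI44 had a single match, on the opposite strand at -18. IFI44L had a match at -164 and another at -73, and the 10 letters of both are the same. The other motif searched, TTCNNNGAA, which resembles the site of STAT dimers and reads the same way on both strands, was in 3 of the 7 windows (IFITM1, BST2 and IFI27) and in 7.66% of all windows. In all 3 a match overlaps capitals printed above, and BST2 has another at -58 that does not. A match describes the letters of a window and is not a measured binding site. IFITM2, the member not called with LSD1+8a or with SRRM4 against EV, had no window to search. A link between the motif and the rises reported below was not tested.

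**Figure D1:**
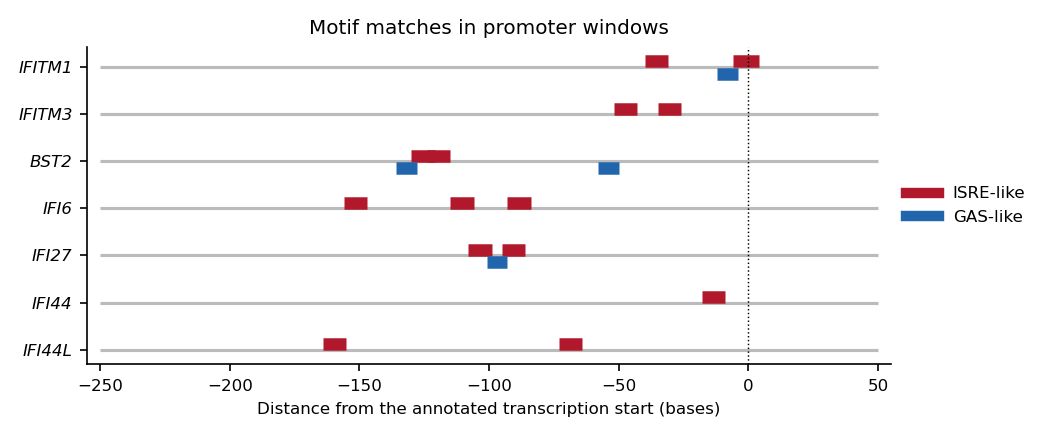
Positions of ISRE-like and STAT-dimer-like (TTCNNNGAA, marked GAS-like) matches in the RefSeq promoter windows of the 7 genes with an entry, plotted as distance in bases from the gene's start. Each gene has at least 1 ISRE-like match, and 3 genes have a STAT-dimer-like match.

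Library totals over the listed genes lay between 10876293 and 13570740 counts. KDM1A, the gene of LSD1, checks the labels: it had 2608, 1983 and 2211 CPM (counts scaled to library size) with LSD1+8a, 96.9, 92.0 and 100.1 with SRRM4, 515, 587 and 519 with LSD1, and 94.0, 95.2 and 93.7 with EV. Its log2 fold change was 4.59 for LSD1+8a against EV, and 2.52 for LSD1 against EV (edgeR adjusted p = 9.1e-08 and 8.55e-05). LSD1+8a and LSD1 libraries thus differ by 2.07 on the log2 scale in KDM1A as well as in its splice form, and amount and form cannot be told apart. The transcript of SRRM4 itself was not analysed here. All 11 prostate luminal markers (KLK3, KLK2 and others) were measured, with summed levels of 8026 to 8441 CPM with LSD1+8a, 7362 to 7429 with SRRM4, 8337 to 8584 with LSD1 and 8238 to 8409 with EV. Of them 6 fell with SRRM4 against EV, where 3.22% of all genes were called lower, and the part of this in the results was not tested. Of the listed markers of other cells, 1 of 8 for leukocytes (CD68), 2 of 5 for fibroblasts and 1 of 4 for endothelium were measured, at sums of at most 6.893, 31.95 and 24.73 CPM in any library. The endothelial marker VWF fell with SRRM4 against EV (log2 fold change -0.29, edgeR adjusted p = 0.0131), at 18.13 to 21.23 CPM with SRRM4 and 23.44 to 24.73 CPM with EV, and its part in the results was not tested. Of the 4 plasmacytoid dendritic cell markers and the 4 embryonic kidney markers, 0 were found among the listed genes under the symbols searched.

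With LSD1+8a, 7 of the 8 genes rose against EV and IFITM2 did not pass the test, in a comparison where edgeR's quasi-likelihood test called 0.285% of all genes higher (Benjamini-Hochberg adjusted p under 0.05 over 13001 genes). The median log2 fold change of the 8 was 1.504, against 0.00 over all genes. In CPM, the libraries of the 2 groups did not overlap for 7 genes, all higher with LSD1+8a, as for 6.12% of all genes. With SRRM4 against EV the same 7 genes rose, where 4.47% of all genes were called higher, with a median of 0.94 for the 8 genes and 0.00 for all genes. Here too 7 genes did not overlap in CPM, against 13.0% of all genes. With LSD1 against EV, 2 genes rose, IFI6 and IFI27, where 0.0462% of all genes were called higher, and the medians were 0.47 and 0.00. The LSD1 and EV libraries did not overlap for 3 genes (IFI6, IFI27 and IFITM1), against 5.48% of all genes. At an unadjusted p under 0.05 by edgeR, 5 of the 8 were higher with LSD1 than with EV, IFITM1, IFI44 and IFI44L among them. Of all 13001 genes, 402 were higher at that threshold. The log2 fold change with LSD1 was above 0 for all 8, as for 6645 of the 13001 genes. None of the 8 was called lower against EV in any of these 3 comparisons by edgeR, by DESeq2 or by limma-voom, nor at an unadjusted p under 0.05 by edgeR, where 0.0615, 3.22 and 0.0538% of all genes were called lower with LSD1+8a, SRRM4 and LSD1. For LSD1, DESeq2 gave no adjusted p for any of the 8. The 3 comparisons share the EV libraries. The labels do not say that libraries came from separate cultures, so p-values measure only the spread between libraries, which may be technical.

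**Figure D2:**
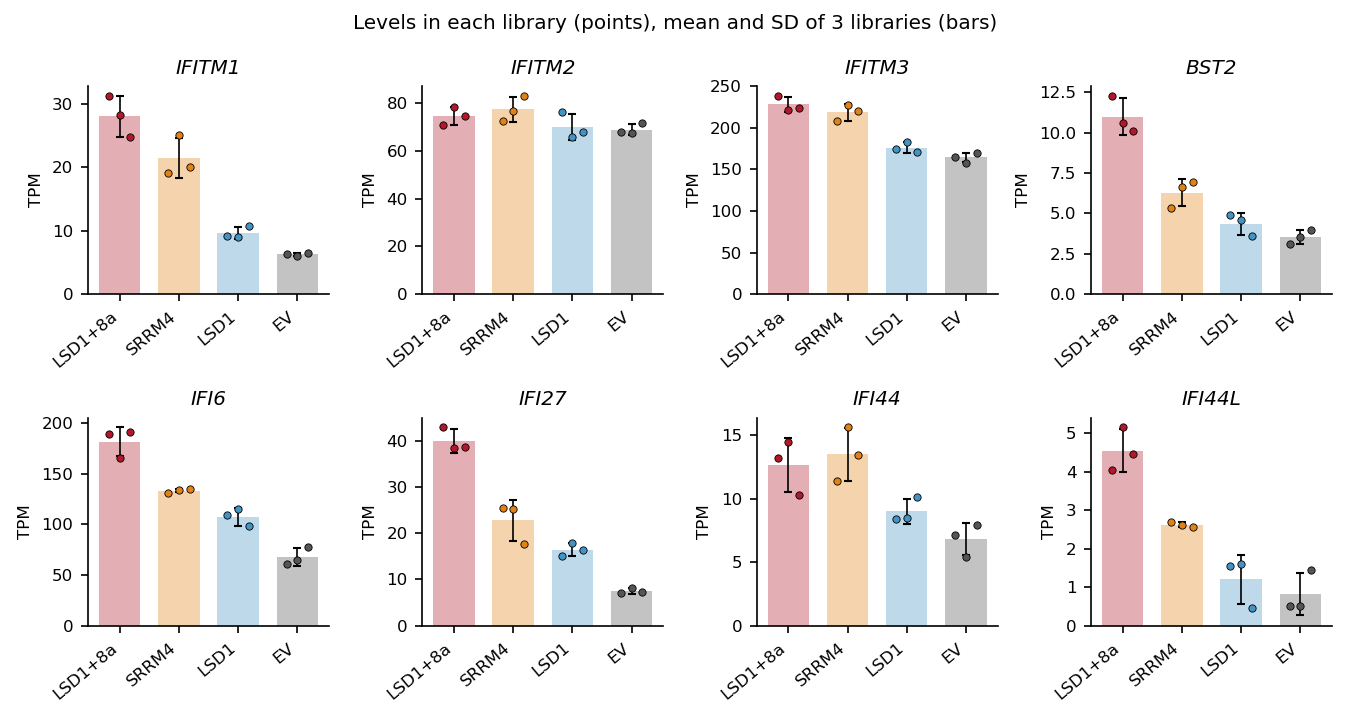
TPM of each of the 8 genes in every library (points) with the group mean and SD (n = 3), groups ordered LSD1+8a, SRRM4, LSD1 and EV. IFI6 separates all 4 groups, and the IFITM2 libraries overlap between groups, except that those of SRRM4 all lie above those of EV.

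Of the IFITM genes, IFITM1 and IFITM3 rose with LSD1+8a and with SRRM4 against EV and IFITM2 did not pass. IFITM1, found mostly at the plasma membrane, had 31.2, 28.2 and 24.8 TPM (transcript levels scaled to transcript length and library size) with LSD1+8a, 19.2, 25.1 and 20.1 with SRRM4, 9.13, 9.03 and 10.7 with LSD1, and 6.27, 6.04 and 6.57 with EV. The LSD1+8a and SRRM4 libraries overlapped each other and stood above all LSD1 libraries, which stood above all EV libraries. Its log2 fold change was 2.13 (SE 0.14) for LSD1+8a against EV and 1.76 (SE 0.14) for SRRM4 against EV (edgeR adjusted p = 1.64e-13 and 2.97e-11). With LSD1 it was 0.59 (SE 0.16), which did not pass the test over all genes (edgeR adjusted p = 0.347).

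IFITM3, an endosomal protein that restricts influenza virus, was the most abundant of the 8 in every group. It had 238, 222 and 224 TPM with LSD1+8a, 208, 228 and 221 with SRRM4, 174, 183 and 171 with LSD1, and 165, 158 and 170 with EV. All LSD1+8a and SRRM4 libraries lay above all LSD1 and EV libraries. Its changes were small and precise, with log2 fold changes of 0.45 (SE 0.04) for LSD1+8a against EV and 0.41 (SE 0.05) for SRRM4 against EV (edgeR adjusted p = 9.13e-09 and 3.03e-08). The value with LSD1 was 0.08 (SE 0.05, edgeR adjusted p = 0.877).

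IFITM2, the other endosomal member, had 70.7, 78.5 and 74.6 TPM with LSD1+8a, 72.4, 76.8 and 83.0 with SRRM4, 76.3, 65.7 and 67.9 with LSD1, and 67.7, 67.3 and 71.7 with EV. The groups overlapped throughout, except that every SRRM4 library lay above every EV library in TPM. Its log2 fold change was 0.09 for LSD1+8a against EV, with a 95% interval of -0.06 to 0.24, and 0.16 for SRRM4 against EV, with an interval of 0.01 to 0.31 (edgeR adjusted p = 0.903 and 0.189). With LSD1 it was 0.01, with an interval of -0.14 to 0.16. It was called in none of the 6 comparisons by edgeR, at an unadjusted p under 0.05 it passed in those of SRRM4 against EV and SRRM4 against LSD1, and DESeq2 and limma-voom called it in none.

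The make-up of the IFITM transcripts differed between groups. IFITM1 made up 9.17, 8.58 and 7.66% of the summed IFITM TPM with LSD1+8a, 6.40, 7.62 and 6.22% with SRRM4, 3.52, 3.5 and 4.3% with LSD1, and 2.62, 2.61 and 2.65% with EV. The LSD1+8a libraries all lay above those of SRRM4, these above those of LSD1, and EV was lowest. Summed over the 3 genes, IFITM TPM was 330.6 ± 8.63 with LSD1+8a, 317.5 ± 16.1 with SRRM4, 255.7 ± 5.11 with LSD1 and 239.5 ± 8.30 with EV (SD, n = 3). Reads may be divided between these near copies in a way that depends on the counting. Of the 50-base stretches of IFITM1 transcripts, 30.3% also occur in IFITM2 and 9.46% in IFITM3, and 12.1% of those of IFITM3 occur in IFITM2 (GENCODE v29). With the counts of the 3 genes summed as 1 feature, the log2 fold change was 0.47 for LSD1+8a against EV, 0.42 for SRRM4 against EV and 0.08 for LSD1 against EV (edgeR adjusted p = 5.1e-10, 2.5e-09 and 0.855).

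**Figure D3:**
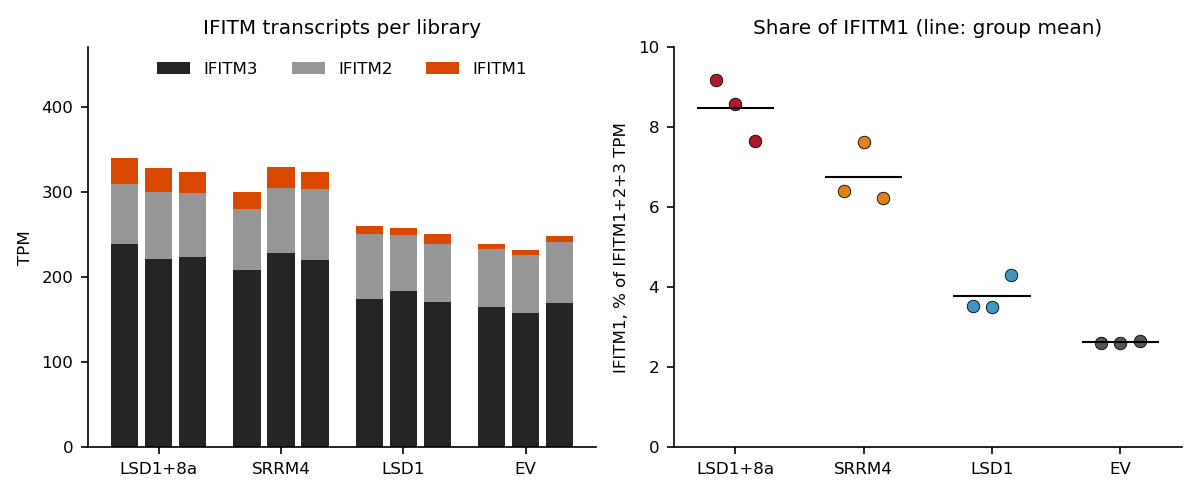
TPM of IFITM1, IFITM2 and IFITM3 stacked for each library, and the share of IFITM1 in the summed IFITM TPM of each library, in percent, with the group mean. IFITM1 holds a mean of 8.47% with LSD1+8a, 6.75% with SRRM4, 3.77% with LSD1 and 2.63% with EV.

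BST2, the tether of budding virions, had 12.3, 10.6 and 10.1 TPM with LSD1+8a, 5.35, 6.62 and 6.92 with SRRM4, 4.88, 4.57 and 3.6 with LSD1, and 3.08, 3.52 and 3.97 with EV. LSD1+8a libraries stood above all others, SRRM4 libraries above those of LSD1 and EV, and the LSD1 and EV libraries overlapped. Its log2 fold change was 1.61 (SE 0.18) for LSD1+8a against EV and 0.82 (SE 0.19) for SRRM4 against EV (edgeR adjusted p = 9.1e-08 and 0.00479). The LSD1 value was 0.28, with a 95% interval of -0.13 to 0.69 (edgeR adjusted p = 0.908).

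Both genes of proteins reported at mitochondria rose in each comparison with EV. IFI6, which opposes apoptosis, had 189, 166 and 191 TPM with LSD1+8a, 131, 134 and 135 with SRRM4, 109, 116 and 98.1 with LSD1, and 60.5, 65.0 and 77.3 with EV. No group overlapped another, in the order LSD1+8a, SRRM4, LSD1 and EV. Its log2 fold changes against EV were 1.399 (SE 0.08) with LSD1+8a, 0.98 (SE 0.08) with SRRM4 and 0.64 (SE 0.08) with LSD1 (edgeR adjusted p = 7.63e-09, 5.3e-07 and 0.00217). Without EV replicate 2, the adjusted p for LSD1 against EV was 0.0567.

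IFI27, a relative of IFI6 in the same protein family, had 42.9, 38.4 and 38.7 TPM with LSD1+8a, 25.5, 25.3 and 17.6 with SRRM4, 15.01, 17.97 and 16.44 with LSD1, and 7.09, 8.13 and 7.24 with EV. The LSD1+8a libraries were above all others and the EV libraries below all others, while 1 SRRM4 library fell among those of LSD1 in TPM. The log2 fold changes against EV were 2.24 (SE 0.14) with LSD1+8a, 1.48 (SE 0.16) with SRRM4 and 0.94 (SE 0.17) with LSD1 (edgeR adjusted p = 1.64e-13, 1.45e-08 and 0.00277). Without LSD1 replicate 3, the adjusted p for LSD1 against EV was 0.051. Together, IFI6 and IFI27 are the members that passed for LSD1, and no 50-base stretch is shared between their transcripts.

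IFI44 and IFI44L lie next to each other on chromosome 1. IFI44 had 13.2, 14.5 and 10.3 TPM with LSD1+8a, 11.4, 15.6 and 13.5 with SRRM4, 8.40, 8.50 and 10.1 with LSD1, and 7.12, 5.43 and 7.95 with EV. LSD1+8a and SRRM4 libraries overlapped each other and stood above those of LSD1, which in TPM stood above those of EV. Its log2 fold change was 0.83 (SE 0.14) for LSD1+8a against EV, 0.90 (SE 0.14) for SRRM4 against EV and 0.36 (SE 0.15) for LSD1 against EV (edgeR adjusted p = 0.000533, 3.09e-05 and 0.759).

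IFI44L was the least abundant of the 8, and its values rest on few reads: 86, 88 and 77 counts with LSD1+8a, 46, 40 and 41 with SRRM4, 23, 25 and 7 with LSD1, and 9, 10 and 18 with EV. LSD1+8a libraries stood above all others and SRRM4 libraries above those of LSD1 and EV, which overlapped. In TPM the means were 4.55 ± 0.56 with LSD1+8a, 2.63 ± 0.07 with SRRM4, 1.21 ± 0.64 with LSD1 and 0.823 ± 0.534 with EV (SD, n = 3). Its log2 fold change was 2.79 (SE 0.26) for LSD1+8a and 2.002 (SE 0.28) for SRRM4 against EV (edgeR adjusted p = 9.13e-09 and 9.92e-06). On log2 TPM with a pseudocount of 1 these values were 1.64 and 1.03 (limma-trend adjusted p = 0.00351 and 0.0261). The LSD1 value of 0.68 (SE 0.33) did not pass (edgeR adjusted p = 0.842), and ran from 0.38 to 1.06 as single libraries were left out. No 50-base stretch is shared between IFI44 and IFI44L transcripts, and with their counts summed as 1 feature the log2 fold change for LSD1+8a against EV was 1.29 (edgeR adjusted p = 1.92e-06).

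Ordered by level per transcript length, IFITM3 and IFI6 stood high among all genes and IFI44L low. IFI6 lay above 94.4% of all genes in TPM with LSD1+8a, 92.0% with SRRM4, 89.7% with LSD1 and 83.3% with EV. IFI27 lay above 70.7, 55.1, 44.9 and 24.9% of genes in the same order of groups. IFITM2 lay above 84.6, 85.1, 83.5 and 83.7%. The summed TPM of the 8 genes was 581 ± 19.6 with LSD1+8a, 496 ± 19.2 with SRRM4, 394 ± 14.2 with LSD1 and 326 ± 17.5 with EV (SD, n = 3), and IFITM transcripts made up 56.9, 64.0, 64.9 and 73.6% of it in that order of groups.

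The direct comparison of LSD1+8a with LSD1 asks how the 2 splice forms differ, within the limit that KDM1A was also more abundant with LSD1+8a. Of the 8 genes 6 rose, where 0.208% of all genes were called higher, and the medians were 1.03 for the 8 and 0.00 for all genes. IFI44L had a log2 fold change of 2.10 (SE 0.24), IFITM1 of 1.54 (SE 0.13), BST2 of 1.33 (SE 0.17) and IFI27 of 1.30 (SE 0.13) (edgeR adjusted p at most 5.76e-06). On log2 TPM with a pseudocount of 1, IFI44L was at 1.37 (limma-trend adjusted p = 0.0199), and with a pseudocount of 0.1 its call was lost. IFI6 and IFITM3 rose by 0.75 (SE 0.07) and 0.37 (SE 0.04). IFI44, at 0.47 (SE 0.13), did not pass over all genes (edgeR adjusted p = 0.253). In CPM the groups did not overlap for 7 of the 8, IFI44 among them, as for 6.16% of all genes. IFITM2 was at 0.08.

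SRRM4 gave lower levels than LSD1+8a for part of the set. KDM1A with SRRM4 had a log2 fold change of 0.03 against EV, with a 95% interval of -0.27 to 0.34. Counts per gene do not show whether exon 8a was included in the KDM1A transcripts of these cells. In the comparison of SRRM4 with LSD1+8a, 5 genes fell, where 3.17% of all genes were called lower, with medians of -0.39 for the 8 and 0.00 for all genes. IFI44L had -0.79 (SE 0.21), BST2 -0.78 (SE 0.17), IFI27 -0.76 (SE 0.12) and IFI6 -0.42 (SE 0.07) on the log2 scale (edgeR adjusted p = 0.0166, 0.0018, 7.43e-05 and 0.00115). The fifth, IFITM1, had -0.36 (SE 0.12, edgeR adjusted p = 0.0461), its groups overlapped, and the call was lost in 8 of 17 alternative settings. That of IFI44L was lost in 5 of 17, and 3 of the 8 genes were called without LSD1+8a replicate 2 or without SRRM4 replicate 3. IFI44 was at 0.07, with a 95% interval of -0.19 to 0.33, IFITM3 at -0.04 and IFITM2 at 0.07, and these 3 did not pass (edgeR adjusted p = 0.822, 0.686 and 0.627).

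For SRRM4 against LSD1, 6 genes rose, where 4.38% of all genes were called higher, with medians of 0.54 and 0.00. The log2 fold change was 1.32 (SE 0.26) for IFI44L, 1.17 (SE 0.14) for IFITM1, 0.54 (SE 0.14) for IFI27, 0.54 (SE 0.14) for IFI44 and 0.33 for both IFITM3 (SE 0.05) and IFI6 (SE 0.08). The adjusted p by edgeR was 1.34e-07 for IFITM1 and 0.0141 for IFI27, and the call of IFI27 was lost in 7 of 17 alternative settings. On log2 TPM with a pseudocount of 1, IFI44L was at 0.76 (limma-trend adjusted p = 0.116), and at either pseudocount 2 of the 8 genes were called. Without SRRM4 replicate 2, 3 of the 8 were called. BST2, at 0.55 (SE 0.19), did not pass over all genes (edgeR adjusted p = 0.0767). In CPM the groups did not overlap for 7 of the 8, BST2 among them, as for 13.2% of all genes.

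**Figure D4:**
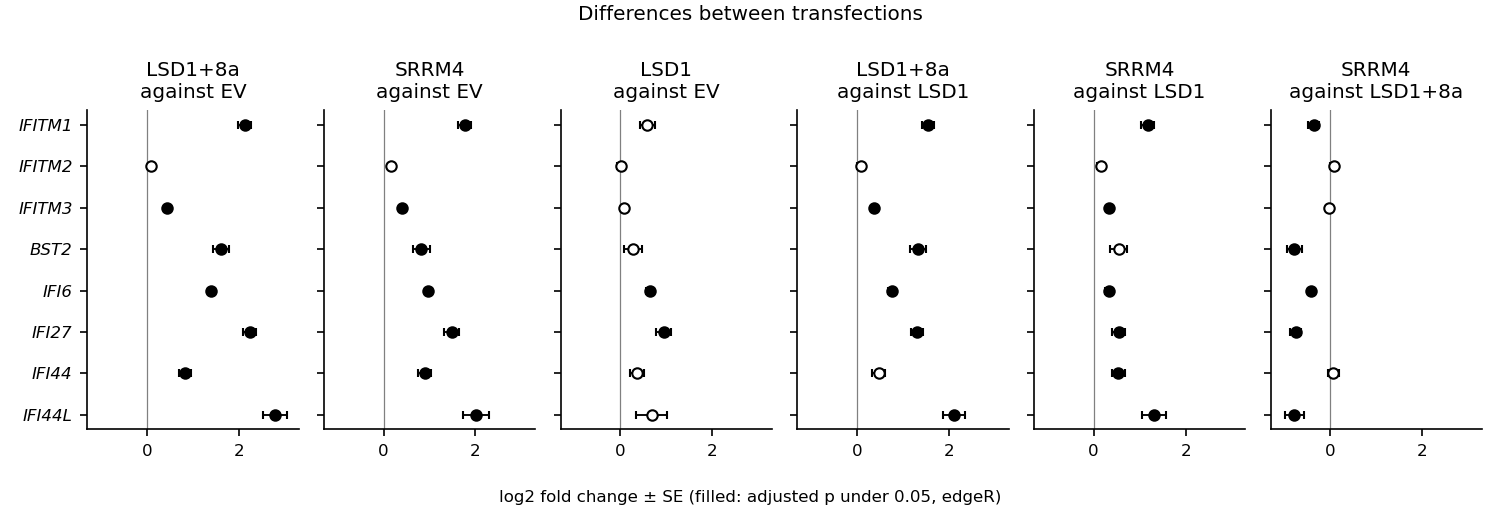
Log2 fold changes of the 8 genes with their SE in the 6 comparisons (edgeR), filled points marking an adjusted p under 0.05. Against EV the values with LSD1+8a reach 2.79 for IFI44L, and those of IFITM2 stay at or below 0.16.

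Over the 12 libraries, the 7 genes other than IFITM2 were compared in pairs. Pearson's r ranged from 0.80 to 0.97 over 21 pairs of log2 CPM values, and pairs with IFITM2 had 0.36 to 0.64 over 7 pairs. The points share library, depth and group, so these values describe the libraries and carry no test. Of 12993 other genes, those whose pattern was most like the mean of the 8 were OAS1, IFIT1, OAS2, ISG15, HERC5, OAS3, SAMD9, OASL, DDX58 and IFIH1, with r from 0.985 for OAS1 to 0.938 for IFIH1 over 12 libraries, against a median of -0.002. All 10 are on the lists of interferon genes described next, which were chosen with earlier results of these data known, so this overlap is no independent evidence. Of these 10, 8 had an entry in the promoter table and 6 of the 8 held the ISRE-like motif.

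Of 37 other interferon-stimulated effectors measured, 16 rose with LSD1+8a, 19 with SRRM4 and 1 (ISG15) with LSD1 against EV, with medians of 0.29, 0.30 and 0.09, against 0.00 over all genes each time. The shares of all genes called higher were 0.285, 4.47 and 0.0462%. On log2 TPM, at either pseudocount, 10 of the 37 were called with LSD1+8a. OAS2, which makes the activator of RNase L, had log2 fold changes of 2.51, 2.13 and 0.85 with LSD1+8a, SRRM4 and LSD1, and the first 2 passed. IFIT3, a partner of the RNA-binding IFIT proteins, had 2.05, 2.22 and 0.23, and OASL, an enhancer of RIG-I signalling, had 1.88, 1.72 and 0.51, again with the first 2 called. On log2 TPM with a pseudocount of 1, OAS2 with SRRM4 was at 1.21. ISG15, a ubiquitin-like modifier, rose in all 3 by 1.11, 1.06 and 0.36. Its mean level was 254 ± 10.2 TPM with LSD1+8a, 241 ± 3.70 with SRRM4, 150 ± 5.45 with LSD1 and 115 ± 2.87 with EV (SD, n = 3).

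Upstream of these effectors lie the receptors and their signalling. Of 15 genes of interferon receptors and signalling, 2 rose with LSD1+8a, 3 with SRRM4 and 0 with LSD1 against EV (medians 0.09, 0.04 and 0.02). Over all genes, 0.285, 4.47 and 0.0462% were called higher. For LSD1, 2 of the 15 were higher at an unadjusted p under 0.05 by edgeR, as were 402 of all 13001 genes. In that comparison limma-voom called 0, and DESeq2 gave no adjusted p for any of the 15. IRF9, the DNA-binding subunit of ISGF3, had log2 fold changes of 0.93, 0.46 and 0.38 with LSD1+8a, SRRM4 and LSD1 against EV, and the first 2 were called. Without SRRM4 replicate 3 the value of IRF9 with SRRM4 was 0.34 (edgeR adjusted p = 0.0915), and 1 of the 15 was called with SRRM4. On log2 TPM, at either pseudocount, 1 of the 15 was called with LSD1+8a and 1 with SRRM4, and IRF9 with SRRM4 was at 0.72 with a pseudocount of 1. IRF1 (0.49), also called with SRRM4, was named after its values were seen. STAT2 (0.10, 0.02 and 0.02) and IRF7 (0.19, 0.23 and 0.12) passed in none of the 3.

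Among 10 genes of nucleic acid sensing, 2 rose with LSD1+8a and with SRRM4 and 0 with LSD1 against EV (medians 0.11, 0.02 and -0.01). Of all genes, 0.285, 4.47 and 0.0462% were called higher. For LSD1, 1 of the 10 was higher at an unadjusted p under 0.05 by edgeR, as were 402 of all 13001 genes. In that comparison limma-voom called 0, and DESeq2 gave no adjusted p for 9 of the 10. On log2 TPM, at either pseudocount, 1 of the 10 was called with LSD1+8a, and IFIH1 did not pass. The genes called were DDX58, which encodes the RNA sensor RIG-I (0.97, 0.53 and 0.15 with LSD1+8a, SRRM4 and LSD1), and IFIH1, which encodes the RNA sensor MDA5 (0.62, 0.57 and 0.23). TLR3 (0.57, 0.54 and 0.34) and EIF2AK2, the RNA-activated kinase PKR (0.17, 0.06 and 0.04), did not pass. Of the 9 interferon ligand genes on the list, 0 were found among the 13001 listed genes under the symbols searched.

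Relatives and partners of the 8 proteins were listed as well. The measured relatives, IFI27L1 and PRRT2, had log2 fold changes of -0.20 and -0.07 for LSD1+8a against EV, and edgeR, DESeq2, limma-voom and an unadjusted p under 0.05 called 0 of 2. Of 13 partners measured, edgeR, DESeq2 and limma-voom called 0 with LSD1+8a against EV. At an unadjusted p under 0.05 by edgeR 2 were lower, as were 420 of all 13001 genes. VAPA, an endoplasmic reticulum protein that binds IFITM3, was at -0.12, AP2M1, an adaptor of endocytosis, at -0.08, HSPA5, a chaperone of the endoplasmic reticulum, at -0.06 and CD81, a tetraspanin that associates with IFITM1, at -0.04. With SRRM4 against EV 1 of the 13 partners rose, where 4.47% of all genes were called higher. It was the nuclear receptor NR4A1 (0.40, edgeR adjusted p = 0.000228), named after its values were seen. On log2 TPM 0 of the 13 partners were called with SRRM4 by limma-trend.

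**Figure D5:**
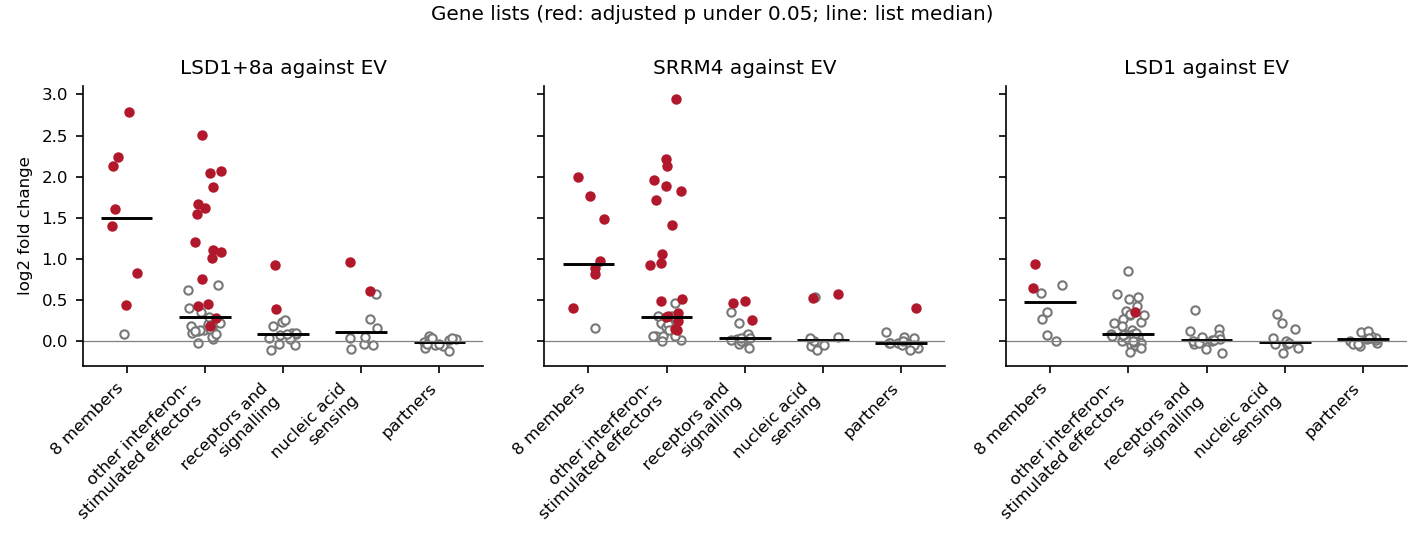
Log2 fold changes against EV of every measured gene on each list with LSD1+8a, SRRM4 and LSD1, with the list's median. The 8 members have medians of 1.504, 0.937 and 0.4745, and the 13 partners of their proteins have medians within 0.04 of 0.

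The 8 genes lie at 5 places in the genome (RefSeq, GRCh38.p14): IFI6 at chr1:27666064-27672192, IFI44L and IFI44 at chr1:78620448-78646145 and chr1:78649789-78664078, IFITM2, IFITM1 and IFITM3 at chr11:307816-309395, chr11:314040-315272 and chr11:319676-320860, IFI27 at chr14:94105894-94116690 and BST2 at chr19:17402939-17405630. The nearest measured non-member on each side, where within 100 kb, gave 8 neighbouring genes, and edgeR, DESeq2 and limma-voom called 0 of them with LSD1+8a or with SRRM4 against EV. At an unadjusted p under 0.05 by edgeR, 0 passed with LSD1+8a and 2 with SRRM4, 1 higher and 1 lower. Of all 13001 genes, 1405 were higher and 1293 lower with SRRM4 at that threshold. Their log2 fold changes ran from -0.20 to 0.07 with LSD1+8a, -0.20 to 0.15 with SRRM4 and -0.21 to 0.06 with LSD1 against EV. MVB12A, an endosomal sorting subunit whose gene lies 111 bases from BST2, was at -0.06 with LSD1+8a, where BST2 was at 1.61. IFI27L1, the neighbour of IFI27, was at -0.20, where IFI27 was at 2.24.

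In the authors' deposited table, the log2 fold changes for LSD1+8a against EV were 2.80 for IFI44L, 2.13 for IFITM1 and 1.4002 for IFI6. For LSD1 against EV the authors' deposited table held no adjusted p for 12350 of 13001 genes, all 8 members among them, and an unadjusted p of 4.73e-15 for IFI6 and 1.83e-05 for IFI27.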

How the data were processed

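The authors deposited whole-number counts per gene and TPM for 12 libraries, per the file headers, and a table of their own log2 fold changes and p-values against EV, which was only quoted. STAR 2.5.3a, RSEM 1.2.31 and the build hg19 are listed, without a role, in the submitters' processing notes. Read length and strand are not given in the sources used here. Counts were tested in edgeR 4.0.16 (R 4.3.3; TMM factors, filterByExpr, robust quasi-likelihood fit) with all 4 groups in the model and no replicate block, adjusted over all 13001 genes. The biological coefficient of variation was 2.98%. CPM used TMM-scaled totals. Likeness was Pearson's r on log2 CPM (prior count 2). The procedure was tested on simulated data.

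Named genes were KDM1A, the 8 members, up to 4 measured genes per list with the smallest p for LSD1+8a against EV, and the 10 genes most like the members' mean (average log2 CPM of at least 0). Some listed genes are not reported here by name. Members and lists were chosen with earlier results of these data known. Alternatives were DESeq2 1.42.0, limma-voom and limma-trend (limma 3.58.1) on log2 TPM with pseudocounts of 1 and 0.1, other size factors and filters, a replicate block, summed paralogs, KDM1A left out of scaling, and each library left out. Neighbouring genes were added after seeing the data.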

Additional observations from a re-analysis of the deposited data

How the results depend on the processing

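The members called stayed at 7 of 8 for SRRM4 against EV in every alternative. For LSD1+8a against EV they were 6 or 7, the lower count with log2 TPM, where IFI44 had an adjusted p of 0.0627 (pseudocount 1). For LSD1+8a against LSD1 they were 5 or 6. For LSD1 against EV, 1 to 2 were called as single libraries were left out, 1 without LSD1 replicate 3 or without EV replicate 2, and DESeq2 gave no adjusted p for any of the 8. For SRRM4 against LSD1+8a, where the main count was 5, 3 were called by DESeq2 (1 member without adjusted p) and with log2 TPM at either pseudocount, and 3 to 5 with single libraries left out. For SRRM4 against LSD1, where the main count was 6, 2 were called with log2 TPM at either pseudocount and 3 to 5 with single libraries left out.

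Some values changed sign. With log2 TPM at pseudocounts of 1 and 0.1, for SRRM4 against EV KDM1A gave -0.0053 and -0.0054, EIF2AK2 -0.0314 and -0.0334, and AP2M1 0.0095 with both. For LSD1 against EV, EIF2AK2 gave -0.0232 and -0.0245, PRRT2 0.0285 and 0.0341, and HSPA5 0.024 with both, while VAPA gave 0.0004 with RLE factors and 0.0006 with DESeq2. For SRRM4 against LSD1+8a, IFI44 alone gave 0.0677 and IFI44L alone -0.7867. Their counts summed as 1 feature gave -0.1933, a value of both genes together rather than of IFI44. With single libraries left out, the ranges were -0.033 to 0.1528 for IFI44 and -0.0806 to 0.0039 for IFITM3 (SRRM4 against LSD1+8a). For LSD1 against EV they were -0.071 to 0.0608 for IFITM2, -0.0088 to 0.0385 for STAT2, -0.2601 to 0.0297 for PRRT2, -0.0285 to 0.018 for VAPA, -0.0371 to 0.0011 for HSPA5 and -0.0017 to 0.1001 for OAS3. For SRRM4 against EV they were -0.0015 to 0.0505 for STAT2, -0.1271 to 0.0434 for IFI27L1 and -0.0357 to 0.215 for PRRT2.

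Same-numbered libraries of different groups showed no clear shared deviation (18 pairs, r from -0.16 to 0.132). This cannot tell whether a number marks a shared culture or day, which the labels do not say. With the replicate block, the members called were 7 for LSD1+8a, 7 for SRRM4 and 2 for LSD1 against EV, 6 for LSD1+8a against LSD1, 4 for SRRM4 against LSD1+8a and 6 for SRRM4 against LSD1. The cause of these differences was not tested. Depth limits IFI44L, with 7 to 25 counts in the LSD1 and EV libraries.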
